A study of Sus scrofa with 32 samples.

Results

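The nuclear-encoded subunits of respiratory chain complexes I to IV were examined in fetal longissimus dorsi, the long back muscle of the pig. Members were the loci of the FPKM table (sequenced fragments scaled by transcript length and by the size of the library) whose gene name, split at commas, held SDHA, SDHB, SDHC, SDHD or a symbol of the NDUFA, NDUFB, NDUFC, NDUFS, NDUFV, UQCR or COX4 to COX8 series, without the NDUFAF assembly factors, and with the row of highest mean kept for each symbol. In the COX series the number had to be followed by A, B, C or a digit, which left out COX4I1, COX4I2 and COX8H. The rule gave 45 of 30413 loci. Grouped by gene name, 25 were in complex I, 3 in complex II, 5 in complex III and 12 in complex IV. NDUFA4, a complex IV subunit, and its relative NDUFA4L2 are counted with complex I by their names. No measured value beyond that choice of row entered the rule.

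The 32 fetuses were collected on gestation day 77 and comprised 16 purebred Iberian and 16 crossbred Iberian x Large White fetuses, with 8 females and 8 males in each genotype. All of them were carried by pure Iberian sows that had been inseminated with mixed semen of Iberian and Large White boars and fed below their maintenance needs from earlier in gestation, so that both genotypes developed in the same litters under the same maternal restriction and no unrestricted group was included. Genotype had been assigned by the authors from a LEPR variant, and the weight category by which fetuses were selected is not in the labels used here. Litters were taken from the 4-digit number that opens each fetus name, which no label explains, and this gave 7 sows with 2 to 7 fetuses each, of which 5 carried both genotypes.

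Complex I oxidises NADH and complex II oxidises succinate, both pass electrons through ubiquinone to complex III, and cytochrome c carries them to complex IV, which reduces oxygen. Complexes I, III and IV pump protons across the inner mitochondrial membrane and are built from subunits of the nuclear and the mitochondrial genome, whereas complex II is entirely nuclear-encoded. In skeletal muscle several complex IV subunits exist as a heart and muscle isoform and a ubiquitous isoform, and the former replaces the latter as fibres mature.

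Some libraries stood apart before any comparison of the subunits was made. Of 8783 loci with a mean above 5 FPKM, 209 lay wholly below and 298 wholly above the range of the other 28 fetuses in the 4 fetuses of sow 1340 (5.77% in all), against 0 to 1 locus for the other litters of 4 or more. A set of 4 Iberian fetuses, known from earlier work on these data to stand apart (1404F1L, 1404F2L, 1410F5L, 1417F3L), had summed levels of 9 adipocyte markers of 259, 560.1, 396 and 709.97 FPKM. The other 12 Iberian fetuses had 44.1 to 279 FPKM (median 74.4) and the 16 crossbred fetuses 34.3 to 196 FPKM (median 85.1), so 3 of the 4 lay above all others and 1404F1L lay inside the Iberian range. Relative depth, estimated from the steps between low values, was 0.773 to 1.303, and 14921 to 16877 loci exceeded 0.5 FPKM per library. Of 17 muscle fibre markers 14 were found, and each exceeded 1 FPKM in every fetus. That threshold did not single out muscle, since the 9 macrophage, 7 endothelial and 3 smooth muscle markers found all passed it too. The summed level of the muscle fibre markers was the highest of the marker lists, with medians of 27879 FPKM for females and 40169 FPKM for males. Fibroblast markers came next, with medians of 9070 and 9042 FPKM. Because whole tissue was sequenced, fewer cells of a type and less RNA per cell cannot be told apart.

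The respiratory chain was strongly expressed in this muscle. Of the 45 members, 40 had means of 5.72 to 258 FPKM and 15 of these exceeded 100 FPKM, and 39 of the 40 lay above 5.95 FPKM, the median of the 16236 loci with a mean above 0.5 FPKM. The other 5 members, COX7B, COX7B2, COX8C, NDUFA4 and UQCRFS1, had a mean under 0.5 FPKM and were not tested. For COX7B, NDUFA4 and UQCRFS1 an expressed locus was found under an Ensembl number through a reference list of gene names, with means of 307, 146 and 111 FPKM. These 3 means at or near 0 therefore belonged to the named row and not to the gene. The same lookup named 16 subunit loci in all, with means of 8.10 to 307 FPKM, and 4 further subunits lay outside the name pattern, of which COX8H (389 FPKM), a heart isoform of subunit 8, and COX4I1 (359 FPKM), the ubiquitous subunit 4, were higher than any of the 40.

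In complex I the highest member was NDUFB9, an accessory subunit of the membrane arm, with 148 to 432 FPKM in Iberian fetuses (median 234) and 135 to 404 FPKM in crossbred fetuses (median 269). The lowest was NDUFC1, also of the membrane arm, with 8.17 to 14.3 FPKM (median 11.3) and 7.43 to 14.6 FPKM (median 11.8). Both ranges overlapped almost wholly between genotypes. Core subunits of complex I differed widely, since NDUFV1, which binds NADH and the flavin, averaged 17.6 FPKM, while NDUFS8, an iron-sulfur subunit, averaged 105 FPKM. FPKM is scaled by transcript length, and several of these loci were merged with neighbours, which limits such a ranking of genes.

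The 3 members of complex II are all nuclear-encoded. SDHD, which anchors the enzyme in the membrane, had 99.7 to 189 FPKM in Iberian fetuses (median 139) and 98.7 to 221 FPKM in crossbred fetuses (median 141). SDHB, the iron-sulfur subunit, was the lowest, with 35.5 to 62.3 FPKM (median 45.6) and 32.9 to 60.6 FPKM (median 49.7). The flavin-carrying subunit SDHA averaged 59.3 FPKM over all fetuses.

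In complex III, UQCRQ, a small subunit near the ubiquinone site, had 95.7 to 231 FPKM in Iberian fetuses (median 147) and 97.6 to 212 FPKM in crossbred fetuses (median 147). UQCRC1, a core protein, was the lowest tested member of the complex, with 46.8 to 126 FPKM (median 68.9) and 44.7 to 115 FPKM (median 77.0). Its locus also carries the collagen gene COL7A1, and the part of each gene in that value is uncertain.

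Complex IV had the widest range of levels as a ratio of its highest to its lowest member, though not in FPKM. COX5A, a subunit facing the matrix, was the highest with 136 to 291 FPKM in Iberian fetuses (median 181) and 131 to 275 FPKM in crossbred fetuses (median 196). COX6B2, the testis isoform of subunit 6B, was the lowest with 2.77 to 12.2 FPKM (median 4.68) and 2.08 to 12.7 FPKM (median 5.53). The muscle isoform COX6A2 averaged 118 FPKM beside 132 FPKM for its ubiquitous counterpart COX6A1, whereas the muscle isoform COX7A1 averaged 37.7 FPKM beside 140 FPKM for COX7A2.

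**Figure D1:**
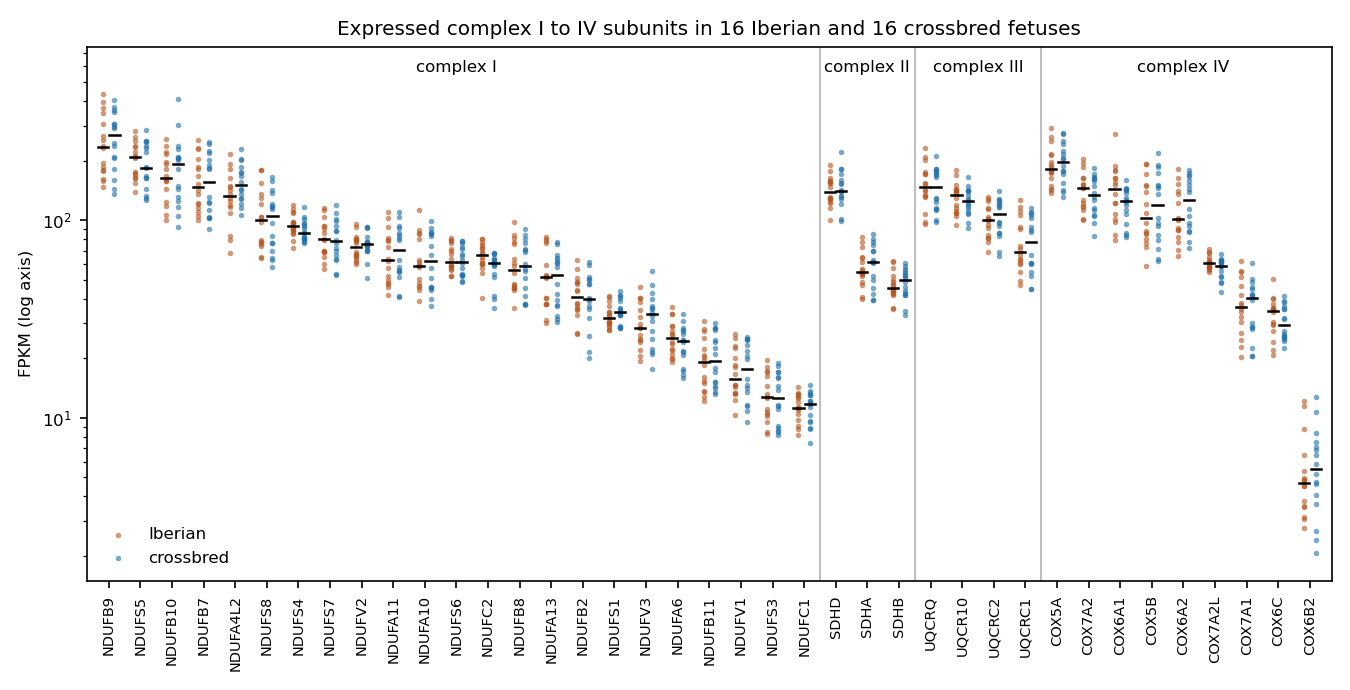
FPKM on a log axis of 39 of the 40 expressed subunits in 16 Iberian (left of each pair) and 16 crossbred fetuses (right), ordered by complex and level, with 1 point per fetus and a bar at the group median. Levels span from COX6B2 (mean 5.72 FPKM) to NDUFB9 (258 FPKM), and the genotypes overlap for all those drawn.

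Of the 40 expressed members, 9 stood in a locus that also carried another gene name, among them NDUFA4L2 (with R3HDM2 and STAC3), NDUFC1 (with MGARP), SDHD and UQCRC1. A further group had a name of its own but shared its genomic span with other loci, giving 22 expressed members whose span was listed more than once. For these loci reads of overlapping genes could be split by the authors' assembly in ways that are not visible in the values.

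Subunit transcripts differed widely in base composition, and their GC content went with their behaviour across fetuses, as described after the comparisons. The GC content of the longest RefSeq transcript (Sscrofa11.1) ranged from 39.3% for COX7A2L to 66.9% for NDUFV3, with a median of 53.8% against 50.8% over the 10691 loci with a match, and the median transcript length was 846.5 bases against 3596 bases. The whole coding sequences of 4 members short enough to print are shown, with G and C in capitals, because the members differed in direction across fetuses. The GC content beside each is that of the coding sequence. Their longest transcripts, used for the slopes below, had 51.3% (COX6A2), 57.9% (COX7A1), 42.0% (NDUFC1) and 42.3% GC (COX6C). COX6A2 (294 bases in 3 exons, chr3:17134528-17135065, plus strand, 64.3% GC) and COX7A1 (243 bases in 4 exons, chr6:45519264-45520675, minus strand, 58.0% GC) are muscle isoforms that moved with the other subunits, and NDUFC1 (231 bases in 3 exons, chr8:87695291-87697603, plus strand, 48.9% GC) and COX6C (228 bases in 2 exons, chr4:37075795-37076626, plus strand, 43.4% GC) moved against them.
COX6A2: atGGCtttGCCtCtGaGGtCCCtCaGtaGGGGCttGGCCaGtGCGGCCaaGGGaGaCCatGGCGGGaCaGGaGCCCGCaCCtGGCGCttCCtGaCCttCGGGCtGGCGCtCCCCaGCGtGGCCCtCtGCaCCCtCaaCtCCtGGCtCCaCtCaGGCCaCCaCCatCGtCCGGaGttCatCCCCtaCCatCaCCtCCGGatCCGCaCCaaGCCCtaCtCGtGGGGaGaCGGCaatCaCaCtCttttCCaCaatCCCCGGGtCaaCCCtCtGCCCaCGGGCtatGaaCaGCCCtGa
COX7A1: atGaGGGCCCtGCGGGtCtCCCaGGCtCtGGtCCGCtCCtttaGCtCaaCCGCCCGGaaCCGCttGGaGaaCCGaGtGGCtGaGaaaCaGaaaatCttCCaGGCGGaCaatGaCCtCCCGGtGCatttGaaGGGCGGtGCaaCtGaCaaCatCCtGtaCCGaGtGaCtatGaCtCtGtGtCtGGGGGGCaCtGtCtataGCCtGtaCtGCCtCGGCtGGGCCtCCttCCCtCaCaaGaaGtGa
NDUFC1: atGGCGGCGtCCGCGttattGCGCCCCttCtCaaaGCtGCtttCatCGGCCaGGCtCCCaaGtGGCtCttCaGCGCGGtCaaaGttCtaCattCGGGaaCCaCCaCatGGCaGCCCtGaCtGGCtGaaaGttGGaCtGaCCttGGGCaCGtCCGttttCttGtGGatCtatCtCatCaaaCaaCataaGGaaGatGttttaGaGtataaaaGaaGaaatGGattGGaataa
COX6C: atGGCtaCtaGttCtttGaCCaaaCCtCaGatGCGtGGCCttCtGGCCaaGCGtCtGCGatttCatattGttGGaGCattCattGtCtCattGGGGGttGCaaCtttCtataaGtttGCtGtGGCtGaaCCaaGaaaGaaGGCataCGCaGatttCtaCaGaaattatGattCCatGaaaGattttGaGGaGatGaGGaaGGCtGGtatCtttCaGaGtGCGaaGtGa

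Promoters of respiratory genes are known for sites of NRF1, GABP (also called NRF2), YY1 and the estrogen-related receptor ERRA. In the 300 bases from 250 before to 50 after the RefSeq start, searched on both strands, the NRF1 letters GCGCATGC were present in 5 of 40 members (12.5%) and in 3.06% of 19559 protein-coding genes. The GABP letters CCGGAAGT were present in 6 members (15%) against 4.68%, and the YY1 letters AAGATGGC in 4 (10%) against 2.48%. The ERRA letters TCAAGGTCA were found in 1 member (2.5%) against 0.358%, whereas the SP1 letters GGGGCGGGG were found in 5 members (12.5%) against 21.1%. These shares are descriptions of letters, and no test was made of them. The stretches around the match in 2 members with the NRF1 letters, NDUFB11 (chrX:41773880-41773945, minus strand) and NDUFS6 (chr16:79000022-79000109, minus strand), and in 2 with the GABP letters, COX5B (chr3:56632108-56632193, minus strand) and NDUFV1 (chr2:4964223-4964310, minus strand), are shown with every match on either strand in capitals, 2 in COX5B and 2 that overlap in NDUFS6. These 4 were chosen for print after their values were seen and had an r of 0.81 to 0.98 with the other members across fetuses.
NDUFB11: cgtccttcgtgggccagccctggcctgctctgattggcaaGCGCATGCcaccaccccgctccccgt
NDUFS6: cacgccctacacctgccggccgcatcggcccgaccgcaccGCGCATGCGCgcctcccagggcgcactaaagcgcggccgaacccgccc
COX5B: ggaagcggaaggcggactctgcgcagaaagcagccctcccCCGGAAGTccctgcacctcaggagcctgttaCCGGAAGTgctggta
NDUFV1: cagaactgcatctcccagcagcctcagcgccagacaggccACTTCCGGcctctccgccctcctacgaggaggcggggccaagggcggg

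The first comparison asked whether purebred and crossbred fetuses sharing a uterus differed in the respiratory chain. None of the 40 members was called by genotype (limma on log2(FPKM + 0.5), with the Benjamini-Hochberg adjusted p up to 0.05 and a minimum fold of 1.3), where 227 of 16750 loci (1.36%) were called. Averages were higher in crossbred fetuses for 18 members and lower for 22, and this balance was not stable. With the sow as a block, which compares litter mates, it was 6 higher of 40 (median log2 difference -0.12). It was 4 in sows with both genotypes only (-0.17), 5 without sow 1410 (-0.12) and 31 without sow 1338 (0.12). The median log2 difference, crossbred minus Iberian, was -0.0031 against 0.03 over all loci, and the members ranged from -0.21 to 0.25. At an unadjusted p of at most 0.05, 1 member (2.50%) stood beside 17.9% of all loci, and the Wilcoxon rank sum test likewise called 0 members and 0.406% of all loci. Members called also numbered 0 without sow 1340 (0.757% of loci) and without the 4 Iberian fetuses that stood apart (0.245%).

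The precision of these differences set a limit on what could be seen. The half-width of the 95% confidence interval on the log2 scale was 0.12 for COX7A2L and 0.44 for COX6B2, the narrowest and the widest of the 40. The largest differences were those of NDUFA4L2 and NDUFC2, which lay in opposite directions.

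NDUFC2, an accessory subunit of the membrane arm of complex I (chr9:12485886-12492616), had the smallest p. It had 40.2 to 80.3 FPKM in Iberian fetuses (median 66.6) and 35.8 to 68.2 FPKM in crossbred fetuses (median 60.5). The groups overlapped, and the log2 difference of -0.21 (SE 0.10) had an adjusted p of 0.250 in limma. Without the litter of sow 1340, which held 3 crossbred and 1 Iberian fetus, it was -0.13, and with the sow as a block it was -0.11.

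COX7A2L, known in mouse for its part in joining complexes III and IV into supercomplexes, had 54.8 to 71.6 FPKM in Iberian fetuses (median 60.5) and 43.4 to 67.2 FPKM in crossbred fetuses (median 58.7). Its log2 difference was -0.10 (SE 0.06, adjusted p = 0.356 in limma). COX6A1 had 78.9 to 271 FPKM (median 143) and 81.6 to 159 FPKM (median 124), with a difference of -0.20 (SE 0.14, adjusted p = 0.462). Among the members with a higher average in crossbred fetuses, NDUFS1 differed by 0.08 (SE 0.07, adjusted p = 0.585) between 27.7 to 41.3 FPKM in Iberian (median 31.9) and 28.5 to 43.7 FPKM in crossbred fetuses (median 34.3).

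NDUFA4L2, a relative of the complex IV subunit NDUFA4 that is induced under low oxygen in human cells, had the largest positive difference. It had 68.2 to 217 FPKM in Iberian fetuses (median 133) and 106 to 228 FPKM in crossbred fetuses (median 150.01), with a log2 difference of 0.25 (SE 0.14, adjusted p = 0.341 in limma). The low end of the Iberian range was made of the 4 fetuses that stood apart, which had 109, 79.4, 82.6 and 68.2 FPKM, while the other 12 Iberian fetuses had 116 to 217 FPKM. Without these 4 fetuses the difference was 0.05. The locus also carries STAC3, a gene of excitation-contraction coupling in skeletal muscle, and R3HDM2, and which of the 3 genes gave these values cannot be told apart.

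The isoforms of subunit 6A were likewise unlike in these 4 fetuses. COX6A2 had 66.0 to 181 FPKM in Iberian fetuses (median 101) and 72.3 to 179 FPKM in crossbred fetuses (median 127), with a log2 difference of 0.19 (SE 0.15, adjusted p = 0.545 in limma). In 1404F1L, 1404F2L, 1410F5L and 1417F3L, COX6A1 had 163, 151, 178 and 271 FPKM, against 78.9 to 188 FPKM (median 122) in the other Iberian fetuses, so that only 1417F3L lay outside their range. COX6A2 had 100.2, 70.5, 88.6 and 77.9 FPKM in them, within the 66.0 to 181 FPKM of the others. Without those fetuses the differences were -0.05 for COX6A1 and 0.08 for COX6A2.

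Isoform ratios within a fetus do not depend on a single scaling factor of the library, and 5 pairs with both genes expressed were compared. Library trends with transcript GC and length, described below, were not removed from the ratios. Paired isoforms can differ in both, as with NDUFA4L2 (58.5% GC) and NDUFA4 (41.7%), and the part of these trends in the ratios was not tested. The log2 ratio of COX6A2 to COX6A1 ran from -1.79 to 0.36 in Iberian fetuses (median -0.24) and from -0.50 to 0.46 in crossbred fetuses (median 0.07). The difference of means, 0.39, had p = 0.0220 and an adjusted p of 0.0549 over the 5 ratios (two-sided permutation test, 100000 resamples, n = 16 each). Exact permutation within the 5 sows carrying both genotypes gave 0.34 with an adjusted p of 0.244. Without the 4 Iberian fetuses that stood apart, which had ratios of -0.70, -1.09, -1.004 and -1.79, the difference was 0.13 with an adjusted p of 0.471 (permutation test).

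The ratio of NDUFA4L2 to NDUFA4 behaved in the same way. Its numerator is the locus shared with R3HDM2 and STAC3, so the part of NDUFA4L2 itself in this ratio is uncertain. The ratio ran from -1.09 to 0.56 in Iberian fetuses (median -0.15) and from -0.39 to 0.63 in crossbred fetuses (median 0.17). The difference of means was 0.34 (p = 0.0111, adjusted p = 0.0549, permutation test). Within sows the difference was 0.30 (exact permutation p = 0.0310, adjusted p = 0.155), and without the same 4 Iberian fetuses it was 0.16 (adjusted p = 0.471, permutation test). Neither ratio therefore passed in the full set of fetuses, and both differences were smaller without these 4 fetuses, which held the 3 highest adipocyte marker sums. The part of adipocyte content in the ratios was not tested.

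The other 3 pairs had larger p-values over all fetuses. The log2 ratio of COX7A1 to COX7A2 had medians of -1.90 in Iberian and -1.93 in crossbred fetuses, with a difference of means of 0.04 (adjusted p = 0.708, permutation test) that was -0.12 within sows and -0.08 without sow 1340. The ratio of COX8H to COX8A differed by 0.11 (adjusted p = 0.524, permutation test) and by -0.07 without the 4 Iberian fetuses. The ratio of COX4I2, an isoform known from lung, to COX4I1 differed by -0.21 (adjusted p = 0.395, permutation test) and by -0.31 within sows (adjusted p = 0.244, exact permutation). COX7A2 thus exceeded COX7A1 in all 32 fetuses, whereas COX8H exceeded COX8A in 31 of 32 and COX6A2 exceeded COX6A1 in 14.

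Sex was compared within each genotype, as in the design of the study. In Iberian fetuses 0 of 40 members were called between females and males in limma (0.116% of 16414 loci), with 0 at an unadjusted p of at most 0.05 beside 2.25% of all loci. Averages were lower in females for 38 of 40 members, with a median log2 difference, female minus male, of -0.17 against -0.02 over all loci. The direction turned with the sow as a block, where 31 of 40 differences were positive with a median of 0.07. The smallest p belonged to NDUFV2, an iron-sulfur subunit of the NADH-binding module (-0.19, SE 0.10, adjusted p = 1.00 in limma), with 60.1 to 92.6 FPKM in females (median 65.7) and 67.3 to 95.4 FPKM in males (median 79.4).

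In crossbred fetuses 0 of 40 members were called between the sexes in limma (0.125% of 16843 loci), and 18 members (45%) had an unadjusted p of at most 0.05 beside 14.9% of all loci. Of these 18, 17 were lower in females, and 37 of the 40 averages were lower in females with a median log2 difference of -0.36 against -0.04 over all loci. Grouped by gene name, so that NDUFA4L2 counts with complex I, 14 of 24 tested members of complex I, 0 of 3 of complex II, 2 of 4 of complex III and 2 of 9 of complex IV had an unadjusted p of at most 0.05. The smallest adjusted p was 0.331.

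NDUFB11, an X-linked accessory subunit of the membrane arm (chrX:41751543-41803663), had the smallest p in crossbred fetuses. It had 13.2 to 24.2 FPKM in females (median 15.1) and 14.1 to 30.0 FPKM in males (median 26.2), with a log2 difference of -0.50 (SE 0.17, adjusted p = 0.331 in limma). NDUFA4L2 had 106 to 176 FPKM in females (median 132) and 120.5 to 228 FPKM in males (median 179), with a difference of -0.38 (SE 0.14, adjusted p = 0.331). COX6C, a small accessory subunit of complex IV, went the other way with 25.4 to 41.4 FPKM in females (median 36.0) and 22.6 to 35.5 FPKM in males (median 25.9), a difference of 0.33 (SE 0.12, adjusted p = 0.331).

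In crossbred fetuses the count of members at an unadjusted p of at most 0.05 changed with the litters taken into account. The median sex difference changed little with them, and was smaller after library trends were removed. With the sow as a block 31 members had an unadjusted p of at most 0.05 in crossbred fetuses, 30 of them lower in females, with a median difference of -0.40 and 0 called (0.196% of all loci). The share of all loci at that unadjusted p was not computed for this fit. Without sow 1340 only 1 of 40 members had an unadjusted p of at most 0.05 in crossbred fetuses, beside 9.44% of all loci. The median difference was then -0.32 (0 called, 0.126% of all loci). After the trend of each library with transcript GC was removed, the median difference was -0.22. It was -0.13 after the trend with transcript length was removed as well. With both trends removed, 6 of 40 members had an unadjusted p of at most 0.05, beside 9.93% of the 10775 loci tested. The summed level of the 14 muscle fibre markers was 16303 to 54696 FPKM in the 16 females (median 27879) and 23931 to 58972 FPKM in the 16 males (median 40169), and its part in the sex difference was not tested.

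Taking both genotypes together, a comparison added after the data were seen, 0 of 40 members were called by sex in limma (0.133% of 17345 loci), and 23 members, all lower in females, had an unadjusted p of at most 0.05 beside 9.41% of all loci. The smallest adjusted p was 0.525. Within litters the mean of the members was lower in females in 5 of the 6 sows with both sexes, sow 1410 being the exception. The count at an unadjusted p of at most 0.05 was 12 of 40 with the sow as a block, beside 9.94% of all loci. It was 7 of 40 without sow 1340, beside 6.199% of all loci. The interaction of genotype and sex was called for 0 of 40 members and 0 of 17345 loci (0%) in limma. At an unadjusted p of at most 0.05 there was 1 member (COX6C, 0.47, SE 0.20, adjusted p = 0.829) beside 4.90% of all loci. A difference between genotypes in the sex effect was therefore not shown.

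The sows were compared next, since litter mates share a mother. In a limma F test of the 7 sows beside genotype, 9 of 40 members were called (22.5%) where 3981 of 16750 loci (23.8%) were called, so the subunits were close to the background share. The 9 were NDUFC2 (adjusted p = 0.000117), NDUFB8 (0.0126), NDUFB2 (0.0146), COX7A2 (0.0252), NDUFA6 (0.0270), UQCRC2 (0.0327), NDUFS3 (0.0356), NDUFA13 (0.0423) and COX5B (0.0483). At an unadjusted p of at most 0.05, 22 members (55%) stood beside 39.5% of all loci. Without sow 1340, 0 members and 16 of 16638 loci (0.0962%) were called. In that fit 24 members had an unadjusted p of at most 0.05, and the share of all loci at that p was not computed. The count of called members was 3 without sow 1401, 3 without sow 1410 and 15 without sow 1417, and 5 with sex added to the fit. Leaving out single fetuses moved it between 2 and 19.

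NDUFC2 was the only one of the 40 members (2.50%) whose levels in the litter of sow 1340 lay wholly outside those of the other fetuses, a share below the 5.77% of all loci with a mean above 5 FPKM. The 4 fetuses had 39.7 (crossbred male), 40.2 (Iberian female), 35.8 and 41.4 FPKM (crossbred females), while the other 28 had 51.2 to 80.3 FPKM (median 62.9). The litter mean was 0.613 of the mean of the others, or -0.71 on the log2 scale, where the SD among the other 28 was 0.17. Both genotypes and both sexes of the litter were low. Of the loci named through the reference, NDUFAB1, the acyl carrier protein of complex I, was also apart with 55.8 to 68.0 FPKM in the litter, as was UQCRFS1, the Rieske iron-sulfur protein of complex III, with 61.1 to 77.0 FPKM.

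The neighbours of NDUFC2 were examined because its low level was common to the whole litter. Of 15 loci with a mean above 0.5 FPKM within 1 Mb on each side on chromosome 9, 4 were called in the F test of sows, close to the 23.8% of all loci. The litter and the other fetuses did not overlap for 2 of them, THRSP and ENSSSCG00000014891. The share of 5.77% cannot be set beside these 2, since it covers only loci above 5 FPKM and ENSSSCG00000014891 had a mean of 4.49 FPKM. THRSP, a lipogenic gene whose locus (chr9:12479594-12485139) ends just before that of NDUFC2, had 0.107 to 0.860 FPKM in the litter and 2.07 to 69.8 FPKM in the others, and was lower. ALG8, a glycosylation enzyme on the other side (chr9:12498394-12532378), overlapped with 3.51 to 6.73 FPKM against 5.08 to 11.4 FPKM (adjusted p = 0.0170 in limma), whereas ENSSSCG00000014891 was higher with 6.12 to 9.02 against 2.39 to 5.62 FPKM. Litter, sire and library handling cannot be told apart for a single litter.

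**Figure D2:**
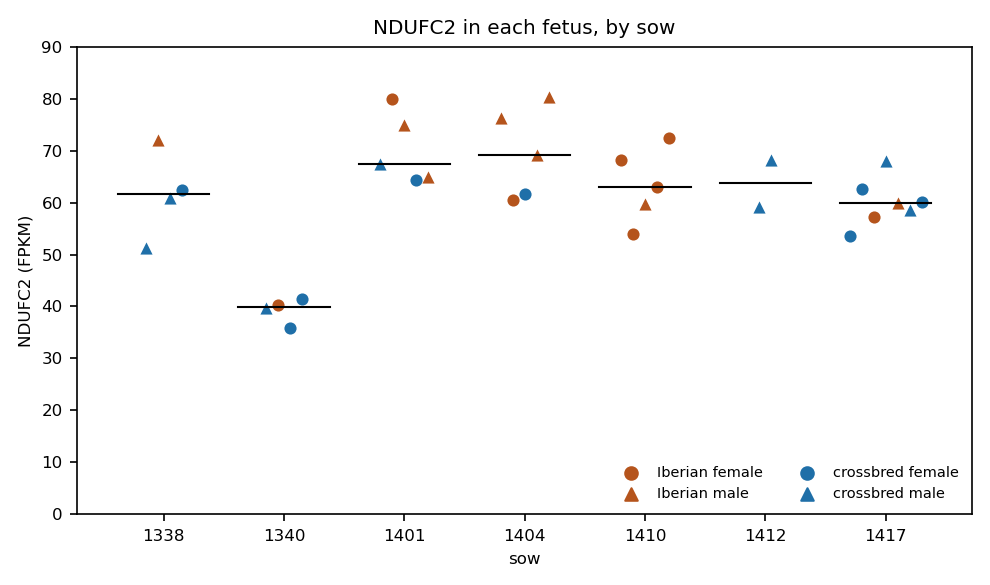
FPKM of NDUFC2 in each of 32 fetuses by sow, with colour for genotype, shape for sex and a bar at the litter median. The 4 fetuses of sow 1340 lie at 35.8 to 41.4 FPKM and the other 28 at 51.2 to 80.3 FPKM.

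The other sow-called members showed 2 kinds of pattern. NDUFB8, a membrane-arm subunit of complex I, had litter medians of 41.0 FPKM in sow 1340, 47.0 in sow 1410 and 50.6 in sow 1338 against 77.1 in sow 1401 and 77.6 in sow 1412. NDUFB2 had a median of 24.2 FPKM in sow 1340 and of 35.5 to 50.2 FPKM in the other litters. UQCRC2, a core protein of complex III, was instead high in sow 1340 with a median of 123 FPKM, close to sows 1401 (125) and 1412 (123), and low in sows 1338 (81.3) and 1410 (81.5). COX5B, the zinc-binding subunit of complex IV, followed the general order with 191 FPKM in sow 1401 and 79.8 FPKM in sow 1410, and ranges within litters were wide for all of these.

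The strongest feature of the respiratory chain in these data was that its subunits moved together from fetus to fetus. Each member's log2 value was expressed as a deviation from its mean over the 32 fetuses, and the mean deviation of the 40 members ran from -0.51 in the crossbred male 1338F2L to 0.52 in the Iberian female 1401F2L, a 2.03-fold range. COX5B had 63.8 FPKM in the former and 192 FPKM in the latter, and NDUFB9 had 135 and 432 FPKM, whereas COX6C had 35.5 and 22.1 FPKM. The median Pearson r over the 780 pairs of members was 0.74, with 72.3% of pairs above 0.5, and the first principal component held 71.2% of the variance. These values describe points that share libraries and litters, and without sow 1340 they were 0.82 and 76.5%.

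The shared level overlapped between genotypes. The mean deviation ran from -0.48 to 0.52 in Iberian fetuses (median 0.01) and from -0.51 to 0.41 in crossbred fetuses (median -0.01). Females had medians of -0.19 in both genotypes, and males of 0.12 in Iberian and 0.30 in crossbred fetuses, with overlapping ranges. Litter medians ran from -0.30 in sow 1338 to 0.33 in sow 1401, and the ranges of all litters of 4 or more overlapped.

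**Figure D3:**
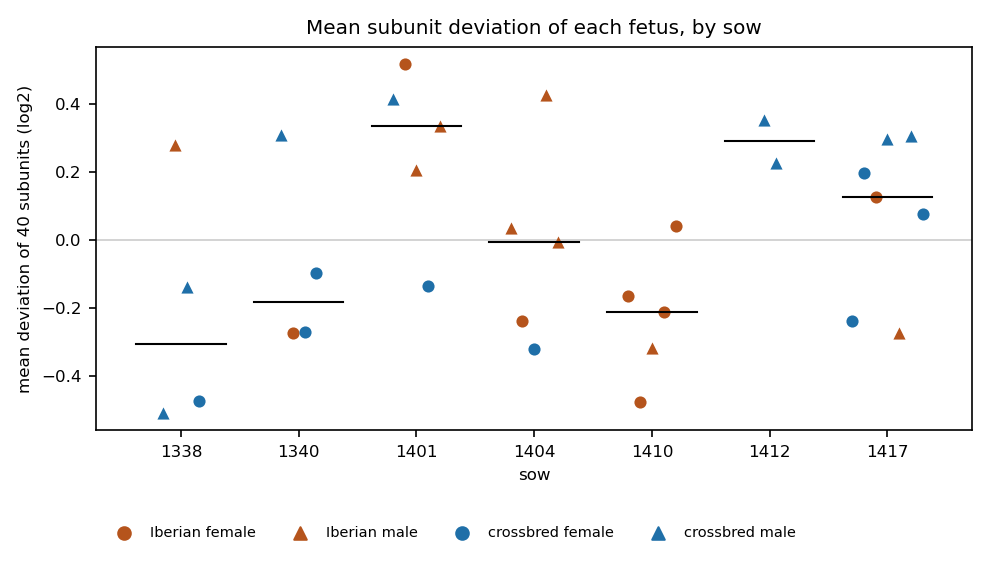
Mean log2 deviation of the 40 expressed subunits in each of 32 fetuses by sow, with colour for genotype, shape for sex and a bar at the litter median. The values run from -0.51 to 0.52 and litters differ in which genotype is higher.

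Members differed in how far they followed this shared level. The correlation of a member with the mean of the other 39 was above 0.8 for 30 of 40, and it was highest for UQCRC1 (0.98). The slope on that mean was steepest for COX5B (1.87), NDUFB9 (1.65), NDUFS8 (1.58) and NDUFB7 (1.56), so these subunits varied more than the shared level itself. At the other end COX7A2L (0.08), NDUFS4 (0.20), an accessory subunit needed for complex I assembly in mouse, and NDUFC2 (0.34) hardly followed it. NDUFC1 (slope -0.30, r -0.39) and COX6C (slope -0.63, r -0.64) were the only members that went the other way.

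The members also differed in their spread over all fetuses. The SD of log2(FPKM + 0.5) was 0.63 for COX6B2, the lowest-expressed member, 0.56 for COX5B and 0.50 for NDUFB9, and it was smallest for COX7A2L (0.15), NDUFS4 (0.19) and NDUFS1 (0.20). COX7A2L thus stayed within 43.4 to 71.6 FPKM in 32 fetuses while COX5B ran from 58.3 to 220 FPKM. NDUFS4 ran from 72.5 to 119 FPKM.

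**Figure D4:**
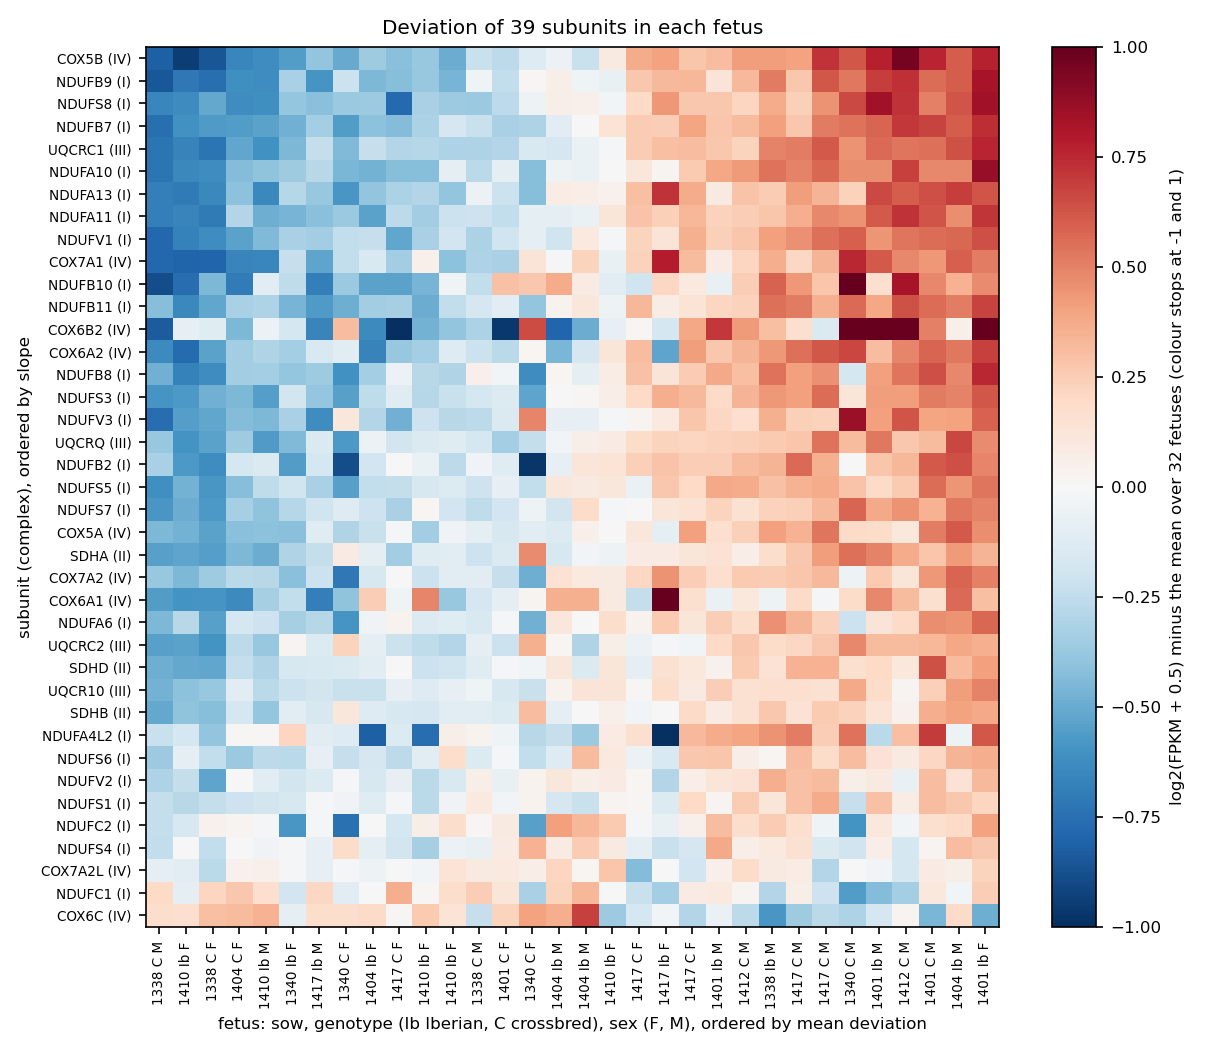
Deviation of log2(FPKM + 0.5) from the mean over 32 fetuses for 39 subunits (rows, ordered by slope on the other members) in each fetus (columns, ordered by mean deviation), with colour limited to -1 and 1. Most subunits turn from low to high together from left to right, and NDUFC1 and COX6C at the bottom turn the other way.

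The slopes went with the base composition of the transcripts. Across the 40 members slope and transcript GC content had a Pearson r of 0.72 (Spearman's rho 0.70), while slope and transcript length had an r of -0.02; genes of 1 set of libraries are not independent points, and no test was made. The 18 members above 55% GC had a median slope of 1.44, the 11 between 50 and 55% a median of 1.11, and the 11 at or below 50% a median of 0.48 with none above 1. COX6C (42.3% GC) and NDUFC1 (42.0%) were among the lowest in GC, while NDUFS6 (65.3% GC, slope 0.62) and NDUFA4L2 (58.5%, slope 0.70) were flatter than others of their composition. The 16 loci named through the reference, which did not enter the member mean, had an r of 0.80 between slope and GC, with NDUFA5 (35.3% GC) at -0.78 and NDUFA2 (54.4%) at 1.44.

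**Figure D5:**
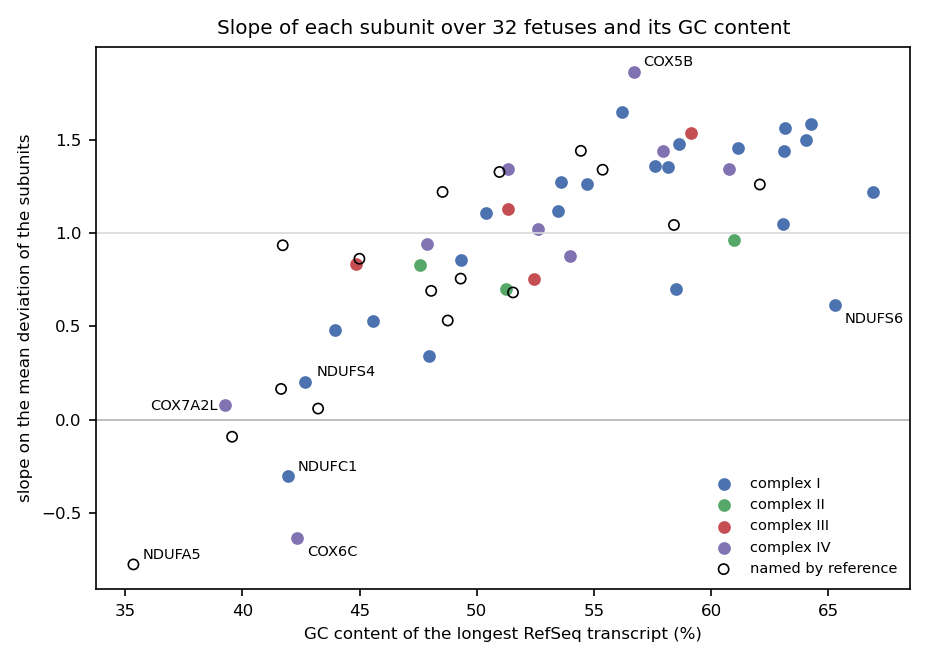
Slope of each subunit on the mean deviation of the members over 32 fetuses against the GC content (%) of its longest RefSeq transcript, with 39 members coloured by complex and 16 loci named through the reference as open circles. Slopes rise from -0.63 for COX6C at 42.3% GC to 1.87 for COX5B at 56.7%, and no member at or below 50% GC exceeds 1.

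The libraries themselves differed in the same respect. The trend of a library's deviations with transcript GC, fitted over all matched loci, ran from -0.23 to 0.29 log2 units per 10 percentage points of GC. Over 32 fetuses this trend and the mean deviation of the members had a Pearson r of 0.87 (Spearman's rho 0.89), with 0.89 without the 2 fetuses farthest from the median trend, 0.93 within sows, 0.83 within Iberian and 0.90 within crossbred fetuses. The trend with transcript length ran from -0.17 to 0.17 log2 units per doubling, with an r of -0.89 (rho -0.90) and -0.87 within sows. Both measures come from the same libraries as the members, so they are given as descriptions with no p.

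Removal of these trends reduced the shared variation. The mean deviation of the members then covered a 1.65-fold range after the GC trend was removed and a 1.26-fold range after the GC and length trends were removed. The median pairwise r was 0.60 and then 0.29, and the first principal component held 60.8% and then 43.1% of the variance. Both settings were added after the data were seen, and they would also remove any biological change in which short, GC-rich transcripts take part. With either setting 0 of 40 members were called by genotype in limma, where 1.75% and 1.90% of 10790 loci were called.

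Other mitochondrial genes followed the subunits to different degrees. Over the 32 fetuses the mean deviation of 9 expressed ATP synthase genes (complex V) had an r of 0.99 with that of the members, 60 mitochondrial ribosomal proteins 0.96, 15 citrate cycle genes 0.94 and 31 assembly factors 0.88. The 48 cytosolic ribosomal proteins, which serve no respiratory role, had an r of 0.90. The 16 regulators of mitochondrial biogenesis, such as PPARGC1A and TFAM, had an r of -0.18 as a list, but its members went both ways, with TFAM at -0.73, GABPA at -0.72, TFB1M at 0.78 and ESRRA at 0.58. The mitochondrially encoded subunits had an r of -0.25 and were held in 3 loci. The largest of these merges most of the mitochondrial genome and ran from 0 to 91703 FPKM, and that of ND6 also reached 0, whereas the locus of CYTB, the cytochrome b of complex III, ran from 2148 to 8692 FPKM and had an r of 0.41. These correlations describe the same 32 libraries.

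None of these lists had a gene called by genotype, where 1.36% of all loci were called. Of 9 complex V genes 5 had a higher average in crossbred fetuses, of 15 citrate cycle genes 14, of 31 assembly factors 14, of 60 mitochondrial ribosomal proteins 22, and of 16 biogenesis regulators 12, with list medians between -0.03 and 0.05. Over all loci 56.2% were higher in crossbred fetuses, with a median of 0.03. At an unadjusted p of at most 0.05 limma gave 0, 1, 2, 1 and 1 genes of these lists, beside 17.9% of all loci. In the F test of sows 2 of 9, 2 of 15, 8 of 31, 24 of 60 and 6 of 16 were called beside 23.8% of all loci.

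The loci whose pattern was most like that of the subunits were sought among 8723 loci outside the members with a mean above 5 FPKM, by Pearson r with the mean of the standardised member values over 32 fetuses. The 10 highest with a symbol were CHMP2A,UBE2M (0.97), POLDIP2, TUFM, DYNLRB1, MRPL48, POLR2I, PRADC1, ECSIT,ZNF653, VTI1B and MRPL37 (0.96). TUFM, the mitochondrial elongation factor, the ribosomal proteins MRPL48 and MRPL37 and the complex I assembly factor ECSIT act in mitochondria, whereas POLR2I is a subunit of RNA polymerase II and VTI1B acts in vesicle fusion. The lowest was SF3B1, a splicing factor, with -0.90. Of all these loci 22.0% had an r above 0.7 and 3.63% below -0.7, so the pattern was shared far beyond the respiratory chain.

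Depth, complexity and tissue markers also moved with the shared level. The number of loci above 0.5 FPKM had an r of -0.77 with the mean deviation (rho -0.74, -0.70 without the 2 farthest fetuses, -0.71 within sows), and relative depth an r of -0.40. The log2 sum of the 14 muscle fibre markers had an r of 0.77, and the sums of the other 9 marker lists ran from 0.15 for adipocytes and cartilage to 0.69 for smooth muscle. Summed muscle fibre markers were 16303 to 54696 FPKM in Iberian (median 28382) and 18102 to 58972 FPKM in crossbred fetuses (median 35210). The part of fibre content and of library composition in the shared level was not tested.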

How the data were processed

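Total RNA of longissimus dorsi was sequenced as paired-end mRNA libraries of 32 fetuses. The authors trimmed reads (Trim Galore), aligned them to Sscrofa11.1 with TopHat2 2.1.0 and Bowtie2 (2.2.7.0 in the submitters' processing notes, another version in the study's methods), and made FPKM values per assembled locus with Cufflinks 2.2.1 and Cuffdiff; the deposited FPKM table holds no counts, so depth is known only in relative terms and precision is limited by the number of fetuses.

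Members and lists were chosen with earlier results of these data known. Loci with a mean above 0.5 FPKM in at least 1 compared group were tested with limma 3.58.1 (R 4.3.3, trended variances) on log2(FPKM + 0.5); a fold is on this scale and understates changes of low loci. Tests covered genotype, sex within genotype, their interaction and, by F test, sow; p-values were Benjamini-Hochberg adjusted over all loci, with a fold of 1.3 required for genotype and sex. Fetuses are separate animals that share litters, and the fits for genotype, sex and interaction had no litter term except where a sow block is named. Without the block, p-values measure the spread between these fetuses and take no account of shared litters. Isoform ratios were compared by permutation. GC and length trends were removed from each library by lowess (span 0.3) over RefSeq-matched loci (65.8% of loci above 0.5 FPKM, and all 40 expressed members). A reference list of gene names gave symbols for Ensembl numbers. RefSeq (Sscrofa11.1) gave sequences, and 33 of the 40 expressed members had a gene of their own symbol inside the locus. Libraries were unstranded, so overlapping antisense genes cannot be told apart.

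Full statistics were given for called members, isoform pairs, the highest and lowest member of each complex, the smallest p in each test (3 in each direction for genotype) and the most and least variable members. Alternatives were the pseudocount (0.1 and 1), the filter (none and 1 FPKM), median-of-ratios rescaling, a sow block, sex as covariate, robust variances, the Wilcoxon test, and leaving out each sow, each fetus or the 4 Iberian fetuses that stand apart. Scripts were tested on simulated data. Python 3.11.15 was used for descriptions. 1 expressed member is counted in all totals but not reported individually here.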

Additional observations from a re-analysis of the deposited data

Results flagged for a closer look

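Within the 4 groups of genotype and sex (8 fetuses each), the highest and the lowest fetus of each member were compared with the rest by the gap to the nearest value as a share of the group's range. Of 160 groups, 7 (4.38%) had a value beyond Dixon's limit, and chance alone would give about 1 in 20. In 6 of them the fetus was the Iberian female 1401F2L, which also had the highest mean deviation of all fetuses. It had 262 FPKM of COX5A (next highest Iberian female 190.0 FPKM), 12.2 FPKM of COX6B2 (next 4.86), 113 FPKM of NDUFA10 (next 62.6), 31.0 FPKM of NDUFB11 (next 20.2), 97.8 FPKM of NDUFB8 (next 63.3) and 45.8 FPKM of NDUFV3 (next 32.4). The 7th was the crossbred female 1338F6L, with 51.1 FPKM of NDUFV2 where the next lowest crossbred female had 70.0 FPKM. Without 1401F2L, 8 members had an unadjusted p of at most 0.05 for sex in Iberian fetuses, all lower in females and none called (limma, 0.115% of all loci called). The share of all loci at that unadjusted p was not computed for this fit.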

How the results depend on the processing

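No member was called by genotype in any of 53 alternatives, by sex within Iberian or crossbred fetuses in 26 each, for the interaction in 40, or by sex over both genotypes in 42. The members' median difference by genotype ranged from -0.17 to 0.12. The count of members called between sows was 9 (23.8% of loci called). It was 0 without sow 1340 (0.0962%), 3 without sow 1401 (19%), 3 without sow 1410 (20.3%) and 15 without sow 1417 (24.6%). It was 5 with genotype and sex as terms (22.7%), 18 with the GC trend removed (40.8%) and 15 with the GC and length trends removed (41.3%). It ranged from 2 to 19 when single fetuses were left out. It was 2 without 1340F8L (15.9% of loci called) or 1340F9L (13.6%), and 4 without 1401F2L (19.9%). It was 5 without 1338F2L, 1338F6L, 1401F8L, 1410F2L, 1410F3L or 1412F2L (20.7% to 21.9%). It was 15 without 1340F7L (29%), 17 without 1340F5L (22.3%), and 19 without 1338F3L (31.2%) or 1417F6L (33.2%). The COX6A2 to COX6A1 ratio passed in 10 of 43 alternatives, including without sow 1338 (0.49) or 1401 (0.49), and was 0.30 to 0.44 without single fetuses (adjusted p from 0.0253, permutation test). The NDUFA4L2 to NDUFA4 ratio, whose numerator locus also carries R3HDM2 and STAC3, passed in 16 of 43. These included the fits without sow 1338 (0.37), 1401 (0.37) or 1410 (0.41). It was 0.28 to 0.39 without single fetuses (adjusted p from 0.0129, permutation test). The COX7A1 to COX7A2 ratio turned negative without sow 1340 (-0.085) or 1410 (-0.032), within sows (-0.12) and without fetus 1340F5L (-0.010, range to 0.073), and COX8H to COX8A without the 4 Iberian fetuses (-0.071); the causes were not tested. Replicate numbers were given in accession order and pair no fetuses, so litters were matched by the sow block and by permutation within sows instead. FPKM values alone do not show the counting error of low loci such as COX6B2.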
